A study of Drosophila virilis and Drosophila yakuba with 2 samples.

Results

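The genes described here encode the proteins of the cytoplasmic ribosome, measured in whole heads of 2 fly species. They were chosen by name alone: a gene model was a member if its symbol began with RpL, for the large subunit, or RpS, for the small subunit, followed directly by a digit. This gave 35 members among 16077 gene models in Drosophila yakuba and 6 members among 14491 gene models in Drosophila virilis, and all 6 virilis symbols were also among the yakuba members. The heads came from wild-type mated females aged 2 to 5 days, of stock 15010-1051.87 for virilis and stock 14021-0261.01 for yakuba. The heads were untreated as far as the labels say, and whole heads hold eye, brain, muscle and fat body together. Each species had 1 library of total RNA, so the values have no replicate error and no difference below was tested. Each gene model has 1 value in FPKM, the fragments counted per kilobase of the model, scaled to the depth of the library, a level per length that can be set beside that of another gene in the same library.

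Ribosomal proteins coat the ribosomal RNA, and most of them are present as a single copy in every ribosome. The large subunit joins amino acids and passes the growing chain through its exit tunnel, while the small subunit binds the mRNA and reads its codons. In D. melanogaster many of these genes are Minute loci, at which flies with a single working copy develop slowly and have short, thin bristles. Their mRNAs are among the most abundant in most cells.

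The 35 and 6 members are part of the family only. A RefSeq gene table of another virilis assembly lists 72 symbols that fit the same rule, 43 beginning with RpL and 29 with RpS. They include copies, such as RpS5a and RpS5b, and symbols such as RpL24-like, so they do not count distinct ribosomal proteins. Of these, 6 were found by name among the virilis models and 32 among the yakuba models, and 40 carried no such symbol in either table, among them RpL3, RpL5, RpL8 and RpS2, and were not analysed here. Just outside the rule in yakuba stood RpLP0, RpLP1 and RpLP2, which form the stalk that recruits translation factors to the large subunit, and sta, which encodes the small subunit protein SA.

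The libraries carried the transcripts of a head. The photoreceptor markers found in virilis ran from Rh2 at 62.9 FPKM to the rhodopsin gene ninaE at 8636 FPKM. Those in yakuba ran from chp at 378 FPKM to the arrestin gene Arr1 at 2177 FPKM. The neuron markers found were lower. In virilis para had 33.2 FPKM and elav 12.8 FPKM, and in yakuba fne had 24.5 FPKM. All 9 ovary and germline markers found in virilis and the 1 found in yakuba were under 5 FPKM. The median model had 6.26 FPKM (virilis) or 4.20 FPKM (yakuba), so levels under 5 FPKM were common among all models. The yakuba germline value was that of dec-1 alone, at 2.81 FPKM. The library total was estimated at 70750000 fragments in virilis and 62500000 in yakuba. There 37.7% and 38.4% of the low values examined lay close to a whole number of fragments. The median over all totals tried was 3.60% and 4.02%. Each total was chosen for a share at or near the highest, so it had to exceed that median. Values of many fragments counted as misses, which lowers the median at large totals. Even with only 100 bases of effective length, the lowest yakuba member, RpL23A at 452 FPKM, would rest on 2825 fragments at that total, with a 95% exact Poisson interval of 435 to 469 FPKM. The lowest virilis member, RpS3 at 552 FPKM, would rest on 3904 fragments, with an interval of 535 to 569 FPKM. These intervals cover counting error only, and that error is small beside the spread between members.

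Every member was strongly expressed. In yakuba the 35 members ran from 452 to 1681 FPKM with a median of 933 FPKM, and in virilis the 6 members ran from 552 to 977 FPKM with a median of 781 FPKM. The lowest yakuba member ranked 177 among 16077 models and the lowest virilis member 165 among 14491, so that all members lay in the top 1.10% and 1.14% of their libraries. Of the 100 highest models, 25 in yakuba and 4 in virilis were members. Of all models at or above the level of the lowest member, members made up 19.8% of 177 in yakuba and 3.64% of 165 in virilis. Of those with a gene symbol, they made up 49.3% of 71 in yakuba and were 6 of 20 in virilis. Over all levels, members were 35 of the 497 models with a symbol in yakuba and 6 of 279 in virilis. These shares depend on which few models carry a symbol. In these mixed-tissue heads, a lower level in a gene could reflect fewer cells that express it or less RNA per cell, which cannot be told apart.

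**Figure D1:**
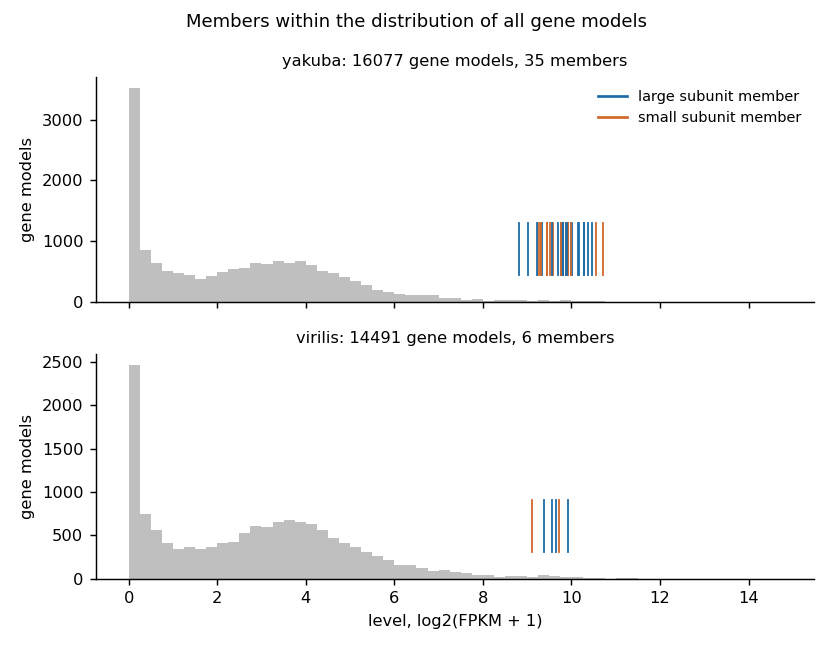
Number of gene models (y axis) by level in log2(FPKM + 1) (x axis) for the yakuba and virilis libraries, with each member drawn as a vertical line, blue for the large and orange for the small subunit. All 35 yakuba members and all 6 virilis members sit in the thin upper tail, far above the overall medians of 4.20 FPKM (yakuba) and 6.26 FPKM (virilis).

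The 35 yakuba members were 0.218% of the gene models and held 7.73% of the summed FPKM of the library. The 6 virilis members held 0.952% of theirs, and the same 6 genes held 1.53% in yakuba. The difference between 7.73% and 0.952% therefore also reflects how many members carried a symbol.

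Within yakuba the members spread over a 3.72-fold range. The SD of log2 FPKM across the 35 genes was 0.44, the coefficient of variation was 30.3%, and the quartiles stood at 716 and 1027 FPKM. Of the 35 members, 28 were within 1.5-fold of the median and 34 within 2-fold; the exception was RpL23A. The 8 genes found from a list of other abundant housekeeping genes ran from betaTub56D at 260 FPKM to sesB at 2117 FPKM. This was an 8.15-fold range, with an SD of log2 FPKM of 0.98. The median of these 8 genes was 758 FPKM, and that of the members was only 1.23 times as high. Of the 8, 7 reached the level of RpL23A, so a high level was not particular to the members. The list was drawn up of abundant genes, so these levels do not stand for housekeeping genes in general. In virilis the 6 members covered a 1.77-fold range with an SD of log2 FPKM of 0.29. Only 2 genes of the abundant housekeeping list were found there. ATPsyn-beta, at 1710 FPKM, was higher than every member, and Hsp83, at 417 FPKM, was lower than every member.

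**Figure D2:**
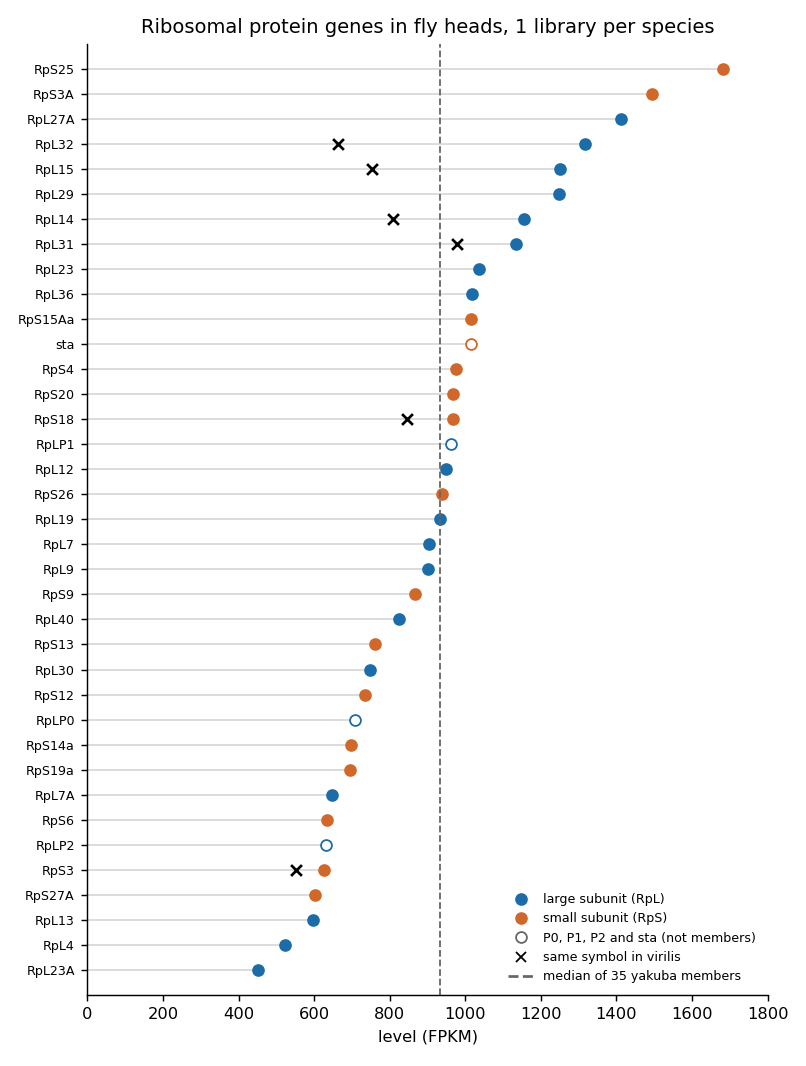
Level in FPKM (x axis, from 0) of 33 of the 35 ribosomal protein genes in the yakuba head library, ordered by level, blue for the large and orange for the small subunit, with RpLP0, RpLP1, RpLP2 and sta as open circles, the virilis value of the same symbol as a cross and the yakuba median of 933 FPKM as a dashed line. RpS25 at 1681 FPKM and RpL23A at 452 FPKM are the ends of the range, and all 6 crosses lie to the left of their circles.

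The 19 large-subunit members of yakuba had a median of 933 FPKM and a range of 452 to 1413 FPKM. The highest was RpL27A at 1413 FPKM (FBgn0068074, 2L, 4492429 to 4493352). RpL32, long used as a reference transcript in fly work under the name rp49, followed at 1316 FPKM (FBgn0068070, 3R, 26794117 to 26794583). RpL15 had 1250 FPKM and RpL29 1249 FPKM. RpL14, a Minute gene in D. melanogaster, had 1155 FPKM, and RpL31, which lies near the exit of the tunnel, had 1133 FPKM. RpL23, which lies on the face towards the small subunit, had 1037 FPKM, and RpL36, another Minute gene, had 1017 FPKM. These 8 were the large-subunit members at 1000 FPKM or more.

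A middle band of 7 large-subunit genes lay between 700 and 1000 FPKM. RpL12, at the base of the stalk, had 950 FPKM and the Minute gene RpL19 933 FPKM, the median of the whole set. RpL7 and RpL9 were nearly equal at 903 and 900 FPKM. RpL40, whose protein is made as a fusion with ubiquitin that is then cut off, had 826 FPKM, and RpL30 had 749 FPKM. The ubiquitin part of RpL40 resembles other ubiquitin genes, so reads there could have been split and its value is uncertain.

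The other 4 large-subunit genes were under 700 FPKM. RpL7A had 647 FPKM and RpL13 598 FPKM. RpL4, which lines the exit tunnel, had 522 FPKM (FBgn0068083, 3R, 22747186 to 22749124). RpL23A, which lies at the mouth of the tunnel where the signal recognition particle docks, was the lowest of all at 452 FPKM (FBgn0068075, 3L, 1618102 to 1619383), 0.484 times the median of the 35. RpL4 and RpL23A were thus the lowest members, while RpL31, another protein near the tunnel's mouth, was among the highest 10.

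The 16 small-subunit members had a median of 902 FPKM and a range of 602 to 1681 FPKM. RpS25, needed in flies and mammals for translation from certain viral RNAs, was the highest member of all at 1681 FPKM, 1.80 times the median of the 35 (FBgn0068053, 3R, 11073688 to 11074393). It ranked 15 among all yakuba models. RpS3A was next at 1494 FPKM, and its D. melanogaster counterpart is the Minute gene of the small dot chromosome. RpS15Aa was the third small-subunit gene above 1000 FPKM, at 1014 FPKM.

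Between 700 and 1000 FPKM stood 8 small-subunit genes. RpS4, RpS20 and RpS18, the last a protein of the subunit's head, had 976, 968.4 and 967.9 FPKM. RpS26, at the channel where mRNA leaves the ribosome, had 938 FPKM, and RpS9, at the channel where mRNA enters, had 866 FPKM. RpS13, a Minute gene in D. melanogaster, had 761 FPKM and RpS12 735 FPKM. RpS4, RpS20 and RpS18 stood side by side, and without replicates such neighbours in the order cannot be ranked.

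Under 700 FPKM stood 5 small-subunit genes. RpS14a and RpS19a had 696.4 and 696.0 FPKM and cannot be ordered. RpS6, the main substrate of S6 kinase in the growth pathway downstream of TOR, had 634 FPKM, and RpS3, at the entry channel for mRNA, had 625 FPKM. RpS27A, the other ubiquitin fusion gene, was the lowest of the small subunit at 602 FPKM, with the same doubt as for RpL40. RpS14a, RpS15Aa and RpS19a carry suffixes that in D. melanogaster tell them from close copies, so reads could have been split between copies and their values are uncertain.

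The subunits had nearly the same median. That of the large-subunit genes was 1.03 times that of the small-subunit genes, but the ratio was 0.979 when the stalk genes and sta were added and 0.995 without the genes with copy suffixes, so the data give it no direction. Above 1000 FPKM stood 8 of 19 large-subunit and 3 of 16 small-subunit genes, and under 700 FPKM 4 and 5. The SD of log2 FPKM was 0.46 in the large and 0.42 in the small subunit. In virilis the 4 large-subunit members lay between 664 and 977 FPKM and the 2 small-subunit members at 552 and 845 FPKM, so the ranges overlapped there too.

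The genes just outside the rule stood among the members. In yakuba, sta had 1014 FPKM, RpLP1 963 FPKM, RpLP0 709 FPKM and RpLP2 631 FPKM. RpLP1 and RpLP2, whose proteins pair with each other on the stalk, thus differed 1.52-fold. With these 4 genes added, the median stayed at 933 FPKM and the share of the summed FPKM was 8.52%.

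The length of the gene model went weakly with the level. Across the 35 yakuba members, whose spans ran from 299 bp for RpL29 to 1981 bp for RpS4 with introns included, span and FPKM had a Spearman rho of -0.27, and across the 6 virilis members -0.43. The points share a library, and FPKM itself is computed from the length. The 7 yakuba members under 500 bp had a median of 1017 FPKM and a range of 826 to 1316 FPKM, against a median of 888 FPKM for the other 28. None of the short members was among the 12 lowest. The part of the length correction for short models in these levels was not tested.

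Other genes of protein synthesis were compared with the members inside yakuba, where more of them had symbols. The members' median was 2.64 times that of the 10 translation factor genes found outside the stalk, which had a median of 353 FPKM and spread from 40.0 to 1304 FPKM, and 3 of the 10 reached the level of the lowest member. The highest were the elongation factor gene Ef2b at 1304 FPKM, the initiation factor genes eIF-5A at 785 FPKM and eIF-4a at 478 FPKM, and the elongation factor gene Ef1gamma at 426 FPKM, and the lowest was the RNA helicase gene bel at 40.0 FPKM. The SD of log2 FPKM was 1.52 in this list against 0.44 in the members. The list as first drawn up also held the 3 stalk genes, and with them its median was 426 FPKM.

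The genes listed for ribosome making and its control, or for other steps, were far lower. The 5 found on the first list had a median of 36.1 FPKM. It was led by Mlf, whose human relative is a myeloid leukemia factor, at 59.6 FPKM. Next was bel at 40.0 FPKM, the RNA helicase gene already counted among the translation factors above. Tif-IA, an initiation factor of ribosomal RNA transcription, had 36.1 FPKM and Dref, a transcription factor of growth genes, 16.0 FPKM. NHP2, a component of RNA-guided pseudouridylation particles, had 14.6 FPKM. The list was drawn up by symbol, and a place on it does not show that a gene builds ribosomes. The 3 aminoacyl-tRNA synthetase genes had 36.6 FPKM for Aats-thr, 34.0 FPKM for Aats-asp and 17.2 FPKM for Aats-val. The only mitochondrial ribosomal protein genes found, mRpL18 and mRpS28, had 10.5 and 9.27 FPKM, and the members' median was 94.4 times theirs. In virilis Dref had 13.8 FPKM and Aats-tyr 14.5 FPKM, against 781 FPKM for the median of the 6 members. None of the genes in this paragraph reached the level of the lowest member of its library.

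Between the species, 6 members could be compared by symbol. RpL32 had 664 FPKM (virilis) and 1316 FPKM (yakuba), RpL15 had 754 and 1250 FPKM, and RpL14 had 808 and 1155 FPKM. RpL31 had 977 and 1133 FPKM, RpS18 had 845 and 968 FPKM, and RpS3 had 552 and 625 FPKM. All 6 FPKM values were thus higher in yakuba, from 1.13-fold for RpS3 to 1.98-fold for RpL32. The 3 largest differences were those of large-subunit genes, and RpL31, RpS18 and RpS3 differed by 1.16-fold or less.

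The size of these differences depended on the scale. Over the 52 of 77 same-symbol genes at 1 FPKM or more in both libraries, the median of log2((virilis + 1)/(yakuba + 1)) was -0.20, and ratios are given relative to it. This median includes the 6 members themselves. On this scale RpS3 was at 0.02, RpS18 at 0.00 and RpL31 at -0.02, while RpL14 was at -0.32, RpL15 at -0.53 and RpL32 at -0.79. Against the median of the 46 pairs that were not members, -0.16, all 6 were lower in virilis, from -0.02 for RpS3 and -0.03 for RpS18 to -0.82 for RpL32. The median of the 6 was -0.17, or -0.20 against those 46 pairs, and it was -0.59 when the libraries were scaled by their upper quartiles and not centred. A gene was called if it was 4-fold or more from the median ratio and had at least 10 FPKM in the higher library. This called 9.76% of the 41 pairs that had that level, 2.44% as higher in virilis and 7.32% as higher in yakuba, and it called 0 of the 6 members, all of which were within 2-fold, as were 27 of the other 35 pairs. The ratios of the 6 had an SD of 0.33, against 1.32 for the 35 others. The quartiles of all 41 pairs were much closer, at -0.36 and 0.49, and the far ends were MtnC at -3.86 and Mal-A5 at 3.23. MtnC had the same yakuba value as MtnB, 15.7 FPKM. The others needed only 10 FPKM in 1 library, whereas every member had at least 552 FPKM, so the 2 SDs are not at like levels.

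**Figure D3:**
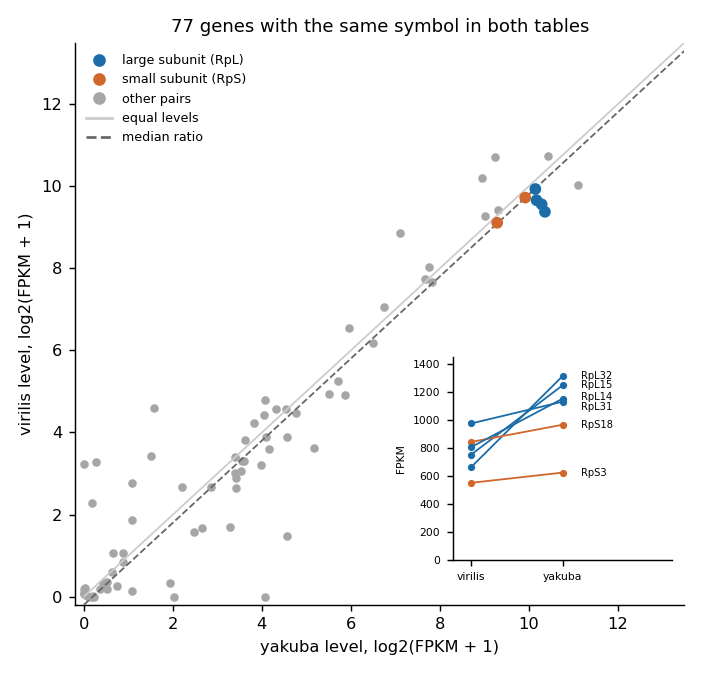
Level in virilis (y axis) against level in yakuba (x axis), both in log2(FPKM + 1), for the 77 genes with the same symbol in both tables, with the members in blue (large subunit) and orange (small subunit), other genes in grey, equal levels as a solid line and the median ratio as a dashed line. The inset joins the virilis and yakuba values of the 6 members in FPKM and shows RpL32 as the lowest of the large-subunit genes in virilis and the highest in yakuba.

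The order of the 6 genes differed between the libraries. RpS3 was the lowest in both. RpL31 and RpS18 were the highest in virilis, whereas RpL32 and RpL15 were the highest in yakuba. The Spearman rho over the 6 genes was -0.09, and with each gene left out in turn it ran from -0.90 to 0.10, so these few points give no order shared or reversed. Model spans were close in both tables, from RpL31 with 439 bp (virilis) and 438 bp (yakuba) to RpS18 with 777 and 663 bp. Species, annotation, mapping and library cannot be told apart here.

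The yakuba members were scattered over every chromosome arm. On the named arms, 2L carried 7, 2R carried 8, 3L carried 6, 3R carried 5, X carried 6 and the dot chromosome 4 carried 1, and 2 lay on unplaced sequences. Relative to all gene models, members were 0.250% of the models of 2L, 0.287% of 2R, 0.204% of 3L, 0.136% of 3R and 0.250% of X. On 2L, 6 of the 7 members were of the large subunit, as were 6 of 8 on 2R. On 3L, 4 of 6 were of the small subunit, as were 3 of 5 on 3R and 4 of 6 on X.

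The large autosome arms had similar medians. The median of the members was 900 FPKM on 2L, 944 FPKM on 2R, 914 FPKM on 3L and 968 FPKM on 3R, or 0.954 to 1.06 times the median of the members on the other named arms, and the ranges overlapped widely. For 2L, that ratio was 0.954 with medians and 1.02 with geometric means, so its direction is not given by the data.

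The X members had the lowest median of the arms. RpS6 had 634 FPKM, RpL7A 647 FPKM, RpS19a 696.0 FPKM and RpS14a 696.4 FPKM, whereas RpS15Aa and RpL36 had 1014 and 1017 FPKM. Their median of 696 FPKM was 0.743 times that of the 27 members on the other named arms, or 0.834 times with geometric means, and their values lay inside the range of the others. Of the 9 yakuba members under 700 FPKM, 4 were on X. Over all gene models at 1 FPKM or more, the X median of 10.1 FPKM was close to those of the other large arms, which lay between 10.1 and 10.9 FPKM. Of the 6 X members, 3 carry the copy suffixes named above.

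RpS3A was the only member on chromosome 4 (FBgn0068049, 54368 to 55262), and at 1494 FPKM it was 1.63 times the median of the members on the other named arms. The median of the 82 gene models of that chromosome was 38.0 FPKM. RpL15 lay on a sequence named as heterochromatin of chromosome 3, where the nearest model to the left was 193079 bp away and listed at 0 FPKM and the nearest to the right was 58150 bp away at 31.9 FPKM. Its level of 1250 FPKM had rank 5 among the 35. In virilis RpL15 again stood apart from other models, with gaps of 35825 and 15836 bp, and had 754 FPKM. RpS27A lay on an unplaced sequence of 2L.

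**Figure D4:**
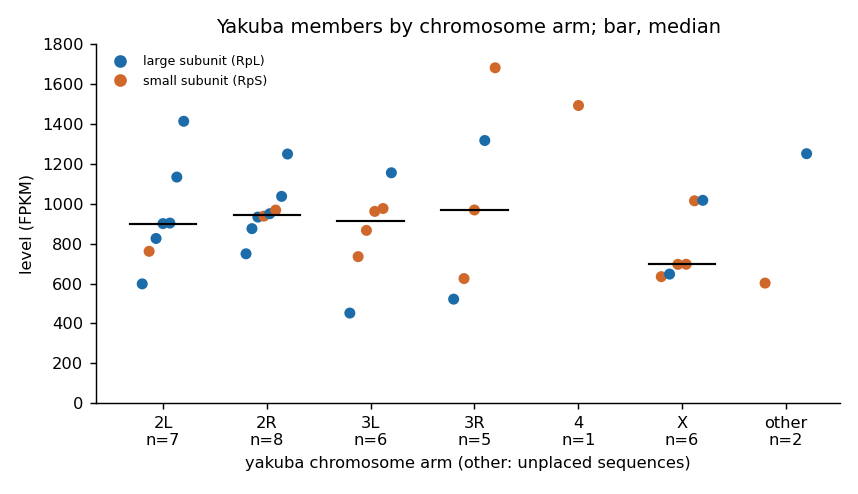
Level in FPKM (y axis, from 0) of each of the 35 yakuba members by chromosome arm (x axis), blue for the large and orange for the small subunit, with the median of each arm of 5 or more members as a bar. The medians of 2L, 2R, 3L and 3R lie between 900 and 968 FPKM, that of X at 696 FPKM, and the single member on chromosome 4 at 1494 FPKM.

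In virilis the 6 members lay on 5 scaffolds. RpS18 and RpL31 shared scaffold_12875, 2.42 Mb apart with 197 models between them, while in yakuba RpS18 was on 2R and RpL31 on 2L. The other same-symbol genes of that scaffold were divided in yakuba in the same way, 11 on 2L and 7 on 2R. RpL32 lay on scaffold_12855 and RpS3 on scaffold_13047, whose other same-symbol genes, 7 and 10 of them, were all on yakuba 3R, as both members were. RpL14 lay on scaffold_13049, with all 7 others on 3L.

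The named members did not form a single cluster. Family genes without such a symbol could not be placed, so closer pairs may exist, and the spacing of other genes was not measured for comparison. On the named arms of yakuba, 27 pairs of members followed each other along an arm, at a median distance of 2.68 Mb, and 18 of the 27 were over 1 Mb apart. Only 3 pairs were within 100 kb of each other, all of the small subunit. RpS12 and RpS4 were 19.3 kb apart with 3 models between them, at 735 and 976 FPKM. RpS14a and RpS6 were 33.5 kb apart, at 696 and 634 FPKM. The levels within the 3 pairs differed 1.10-fold to 1.33-fold, and the median over all 27 pairs was 1.29-fold.

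The neighbours were mostly far below the members, though fewer of them were under 1 FPKM than among all flanking models. The 70 gene models directly to the left and right of the yakuba members had a median of 8.43 FPKM, against 4.64 FPKM for the flanking models of all genes. Of these 70 models, 60 (85.7%) were under 30 FPKM, as were 87.0% of all flanking models, so neighbours under that level were about as common beside members as elsewhere. The level of the lowest member was reached by 2 of the 70 (2.86%), both beside RpL12, and by 1.14% of all flanking models. Flanking models under 1 FPKM were 11.4% of those of the members and 33.1% of those of all genes. The members' own level was at least 10 times that of the higher neighbour in 29 of 35 cases, with a median ratio of 62.7.

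These neighbours were close. The nearest model was within 1000 bp in 27 of 35 yakuba members (77.1%), against 58.2% over all models, and the median distance to it was 445 bp against 773 bp. In virilis it was within 1000 bp in 5 of 6 members, against 51.5% over all models, and the 12 flanking models had a median of 7.50 FPKM against 6.51 FPKM for all flanking models. RpL29, at 1249 FPKM, had a model at 1.28 FPKM only 76 bp to its left, and RpL31, at 1133 FPKM, one at 2.18 FPKM only 78 bp to its right. No member overlapped another model in either species, whereas 6.56% of all yakuba and 6.06% of all virilis models did. The sources used here do not say whether the models cover whole transcripts. Overlap of transcripts or reads beyond the annotated spans was therefore not examined, and the distances are those between annotated models.

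**Figure D5:**
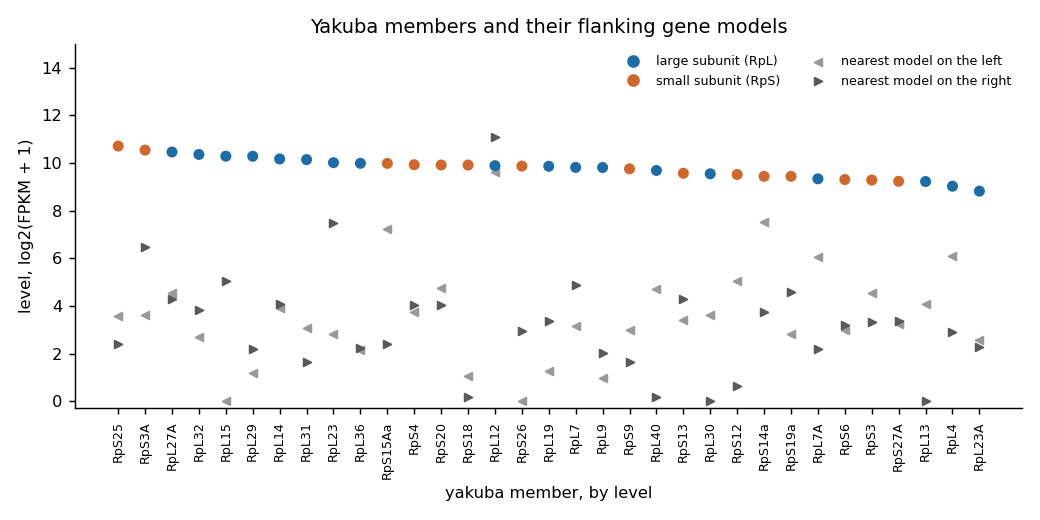
Level in log2(FPKM + 1) (y axis) of 33 of the 35 yakuba members, ordered by level (x axis), as blue (large subunit) and orange (small subunit) circles, with the nearest gene models on the left and right as triangles. The members form a narrow upper band, 56 of the 66 triangles stand for models under 30 FPKM, and the triangle above the band is the right neighbour of RpL12.

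One neighbourhood could be followed by name in both species. RpS18 was flanked by plu, which in D. melanogaster restrains DNA replication in the early embryo, at 199 bp in virilis and 437 bp in yakuba. RpS18 had 845 FPKM and plu 3.90 FPKM in virilis, and RpS18 had 968 FPKM and plu 0.136 FPKM in yakuba. On the other side stood models without a symbol, at 0.401 FPKM in virilis and 1.09 FPKM in yakuba. RpL13 and Dref were 756 bp apart in yakuba, at 598 and 16.0 FPKM. RpL14 lay 491 bp from Nelf-E in virilis, which encodes a subunit of the factor that holds paused RNA polymerase, at 808 and 9.16 FPKM.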

How the data were processed

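Trizol-extracted head RNA, 1 µg for each species, was made into total RNA libraries with a strand-marking kit, per the labels' protocols. TopHat and Cufflinks are named, per the submitters' processing notes; the sources used here do not give versions, builds, annotation or the use of strand. Values are in FPKM as computed by the authors, in 1 table for each library, per the file headers. Locus starts were read as counted from 0, since 66.8% and 67.6% of spans under 900 bp were multiples of 3, and are printed counted from 1. All models were kept.

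The members, the lists of related genes and the comparisons were chosen with earlier results of these data known. Every member is counted, and all but 2, which are not reported here, are named; of other lists, up to 4 of the highest and the lowest. Libraries were taken as groups by species, with 1 each, so medians, ranges and ratios are descriptions without tests or p-values. Genes were paired by identical symbol, with a pseudocount of 1 FPKM. The RefSeq table matched 0 of the virilis identifiers and was used for symbols only. Sequences and promoter motifs were not analysed here.

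Library totals were estimated from models of 900 to 4000 bp under 0.12 FPKM, as the total at which most values fell within 0.04 of a whole number of fragments. Most low values lay off such steps, so the totals are estimates only. Near-best totals ran from 70000000 to 72750000 and from 61250000 to 64750000. A floor of 3 fragments over 1000 bp is 0.0424 FPKM in virilis and 0.0480 FPKM in yakuba. Python 3.11.15, pandas 2.3.3 and numpy 2.4.6 were used.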

Additional observations from a re-analysis of the deposited data

How the results depend on the processing

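No paired analysis was possible because each species has 1 library. With no replicates, 33 alternatives over 13 values were compared at 3 significant digits, and 5 left the value unchanged. The median log2 ratio of the 6 pairs, -0.17, was negative under every alternative: -0.15 and -0.18 with pseudocounts of 0.1 and 5 FPKM, -0.36 without centring, -0.21 and -0.20 with the centre from all pairs and from pairs at 10 FPKM or more, and -0.59 with upper-quartile scaling. It was -0.56 with both libraries scaled to the same summed FPKM and -0.20 with the centre from pairs that are not members, both among the 6 alternatives chosen after seeing the data. The yakuba median of 933 FPKM became 930 FPKM as a mean, 888 FPKM over spans of 500 bp or more and 935 FPKM without copy suffixes, and the virilis mean was 767 FPKM. The large to small ratio of 1.03 became 1.11 over spans of 500 bp or more, and 0.979 with the stalk genes and sta and 0.995 without copy suffixes, both added later. The SD of log2 FPKM became 0.45 over spans of 500 bp or more and 0.42 with the stalk genes and sta. Without models under 300 bp, the shares of summed FPKM became 1.05% in virilis and 8.21% in yakuba, and without the 10 highest models 1.08% and 8.48%. With the stalk genes and sta, the yakuba share was 8.52%. With geometric means, the ratio of each arm to the others was 1.02 for 2L, 1.09 for 2R, 0.908 for 3L, 1.05 for 3R, 1.70 for chromosome 4 and 0.834 for X, against 0.954, 1.05, 0.980, 1.06, 1.63 and 0.743 with medians.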

Other observations

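RpL12 was the one yakuba member that stood beside models of its own level. At 950 FPKM, it had the initiation factor gene eIF-5A 1258 bp to its left at 785 FPKM and a model without a symbol, GE11488, of 456 bp and 636 bp to its right, at 2193 FPKM. RpS14a, at 696 FPKM with a span of 515 bp, had a model without a symbol, GE15749, 654 bp to its left with a span of 527 bp at 182 FPKM. RpL23 had a right neighbour, GE11628, at 180 FPKM and 112 bp away, and RpS15Aa had the peroxiredoxin gene Jafrac1 5338 bp to its left at 150 FPKM. These 5 flanking models were the ones at 100 FPKM or more among the 70 of yakuba (7.14%, against 4.06% of all flanking models). In virilis the 1 such model of 12 (8.33%, against 5.09%) was beside RpL15, at 177 FPKM.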
